A study of Arabidopsis thaliana with 24 samples.

Results

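The genes examined were the 8 that encode subunits of Polycomb repressive complex 2 (PRC2) in Arabidopsis thaliana, out of 33540 gene IDs named in the deposited expression table. They were CLF (AT2G23380), SWN (AT4G02020), MEA (AT1G02580), EMF2 (AT5G51230), VRN2 (AT4G16845), FIS2 (AT2G35670), FIE (AT3G20740) and MSI1 (AT5G58230), found by gene ID, and all 8 were present. Transcripts were measured by strand-specific single-end RNA-seq in wild-type Col-0 plants (WT) and in clf-28 plants, in roots and shoots of plants aged 2 weeks on MS plates and in inflorescences and siliques of plants aged 5 weeks in soil, all under long days. Shoots were the aerial parts. The labels gave 3 biological replicates for each of the 8 groups, 24 libraries in all, and no agent was applied. clf-28 is a mutant allele of CLF in the Col-0 background, known as a T-DNA insertion. All clf-28 samples came from this allele, so no second allele was measured.

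PRC2 places methyl groups on lysine 27 of histone H3, a mark that keeps developmental genes silent. The catalytic subunit is encoded by 3 homologues of the fly Enhancer of zeste protein, CLF, SWN and MEA, and a zinc finger subunit by 3 homologues of the fly Suppressor of zeste protein, EMF2, VRN2 and FIS2. FIE, the homologue of fly Extra sex combs, and MSI1, a WD40 histone-binding protein, are shared between the complexes. In plants, EMF2 complexes are known for holding back flowering and floral organ genes in leaves, VRN2 complexes for silencing FLC after winter cold, and the complex of MEA and FIS2 for controlling the central cell and the endosperm, where both genes are expressed from the maternal copy. The comparison of WT with clf-28 asks how the other subunits stand when CLF carries a mutant allele.

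In clf-28, replicate 3 of shoots had the profile of siliques and replicate 3 of siliques that of shoots, so 22 libraries were used and results that turn on this choice are also given with all 24. Values are FPKM (fragments scaled to transcript length and to library size, a level per length), differences are on the log2(FPKM + 1) scale with their standard error (SE), and a change was called at an adjusted p under 0.05 (limma, two-sided, Benjamini-Hochberg over 23790 table lines). Read depth was unknown. Root markers and pollen and tapetum markers followed the labels. Summed root markers were 493 to 859 FPKM in roots and at most 58.6 elsewhere, and summed pollen and tapetum markers were 609 to 933 FPKM in inflorescences and at most 93.9 elsewhere. Summed seed maturation markers did not, with 8.03 and 8.75 FPKM in WT siliques replicates 2 and 3 and 99.3 to 201 FPKM in clf-28 roots. Summed photosynthesis markers reached 29582 FPKM in WT siliques, near the lowest WT shoot library (29932 FPKM). The WT replicate 1 libraries stood apart from their groups, and in siliques the gap was widest, where Spearman's correlation with the rest of the group, taken across genes and averaged, was 0.910 for that library and 0.949 and 0.948 for the other pair. In bulk tissue, fewer cells of a type and less RNA per cell cannot be told apart.

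The sequences just upstream of MEA and FIS2 are shown because these are the members whose transcripts were scarce outside siliques. Each is the 250 bases before the annotated gene start in the RefSeq TAIR10.1 assembly, on the plus strand, and neither window overlaps another annotated gene. The capitals mark a match to the RY element CATGCA, a motif known from seed genes.
MEA promoter, chr1:544483-544732: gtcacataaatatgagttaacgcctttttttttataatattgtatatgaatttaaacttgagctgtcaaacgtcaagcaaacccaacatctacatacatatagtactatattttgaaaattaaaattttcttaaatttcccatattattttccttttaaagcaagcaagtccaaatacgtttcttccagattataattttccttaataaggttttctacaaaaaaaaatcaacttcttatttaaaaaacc
FIS2 promoter, chr2:14992315-14992564: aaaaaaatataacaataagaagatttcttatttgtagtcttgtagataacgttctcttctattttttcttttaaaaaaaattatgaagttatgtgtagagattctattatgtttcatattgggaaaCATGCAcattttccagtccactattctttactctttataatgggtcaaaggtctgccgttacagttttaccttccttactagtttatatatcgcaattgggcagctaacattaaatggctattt
FIS2 had 1 RY match and MEA none. Both strands were searched in the same window of all 8 genes for the RY element, the telobox AAACCCTA, the repeat GAGAGA and 4 spellings of the E2F site (TTTCCCGC, TTTGGCGC, TTTCGCGC and TTTGCCGC), motifs chosen with the tissue pattern of these genes known. The RY element was found in FIS2 and the GAGAGA repeat in CLF and in MSI1, while no telobox or E2F site was found. The CLF window overlaps the annotated gene AT2G23370 and the MSI1 window overlaps AT5G58220. Over 27444 gene promoters of this length, 8.43% held the RY element, 20.6% the GAGAGA repeat, 4.49% the telobox and 1.41% an E2F site.

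CLF, the methyltransferase that carries the mutation, was measured first. In WT its level was 8.09, 13.8 and 14.2 FPKM in roots, 8.84, 8.33 and 6.93 FPKM in shoots, 7.50, 8.25 and 7.31 FPKM in inflorescences and 6.15, 6.44 and 6.05 FPKM in siliques. In clf-28 it was 7.76, 7.42 and 8.09 FPKM in roots, 7.93 and 6.81 FPKM in shoots, 15.7, 12.1 and 19.5 FPKM in inflorescences and 19.0 and 11.9 FPKM in siliques. Every clf-28 inflorescence and silique library lay above every WT library of the same tissue, as 7.95% and 20.8% of all lines did, the root libraries of clf-28 lay below the WT ones, the highest of them level with WT roots replicate 1 at the digits given, and the shoot libraries overlapped.

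CLF transcript rose in clf-28 inflorescences, from 7.69 ± 0.497 FPKM (SD, n = 3) to 15.7 ± 3.68 FPKM (SD, n = 3), a log2 difference of 0.92 (SE 0.20, limma adjusted p = 0.0115). It rose in clf-28 siliques too, from 6.21 ± 0.207 FPKM (SD, n = 3) to 15.5 ± 5.01 FPKM (SD, n = 2), a log2 difference of 1.16 (SE 0.22, limma adjusted p = 7.96e-04). CLF was the only member called in inflorescences, 1 of 8, where 3.89% of all lines were called and 1.7% were called higher. In siliques 2 of 8 members were called, CLF higher and FIS2 lower, where 28.7% of all lines were called, 12.3% higher and 16.4% lower. The inflorescence call was lost without clf-28 inflorescences replicate 3 (0.77, limma adjusted p = 0.08), with all 24 libraries (adjusted p = 0.195) and with the 6 inflorescence libraries fitted alone (adjusted p = 0.13). The silique call was lost with all 24 libraries (0.79, limma adjusted p = 0.0669) and with the 5 silique libraries alone (adjusted p = 0.0545), and held in each leave-out of 1 library (0.84 to 1.47).

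In roots CLF was 12.0 ± 3.43 FPKM (SD, n = 3) in WT and 7.76 ± 0.334 FPKM (SD, n = 3) in clf-28, a log2 difference of -0.54 (SE 0.20) that did not pass (limma adjusted p = 0.107). Without WT roots replicate 1, the lowest WT root value, it passed (-0.78, limma adjusted p = 0.00822). The CLF root difference was also called with libraries weighted by their fit to their group, a setting that called more of all lines in roots too, as counted below. In shoots the difference was -0.11 (SE 0.22, limma adjusted p = 0.896), and it turned to 0.16 with all 24 libraries. No member was called in roots or shoots (limma), against 8.86% and 10.6% of all lines, while 1 of 8 had an unadjusted p under 0.05 in each. In roots FIE and MSI1, like CLF, had all clf-28 values below WT, where 18% of lines did. The clf-28 minus WT difference in CLF itself differed between tissues (interaction F = 15.7, limma adjusted p = 7.87e-04), a test in which 26.5% of all lines were called and 2 of 8 members, CLF and FIS2. The interaction did not pass with all 24 libraries (CLF adjusted p = 0.0615, FIS2 adjusted p = 0.0799).

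**Figure D1:**
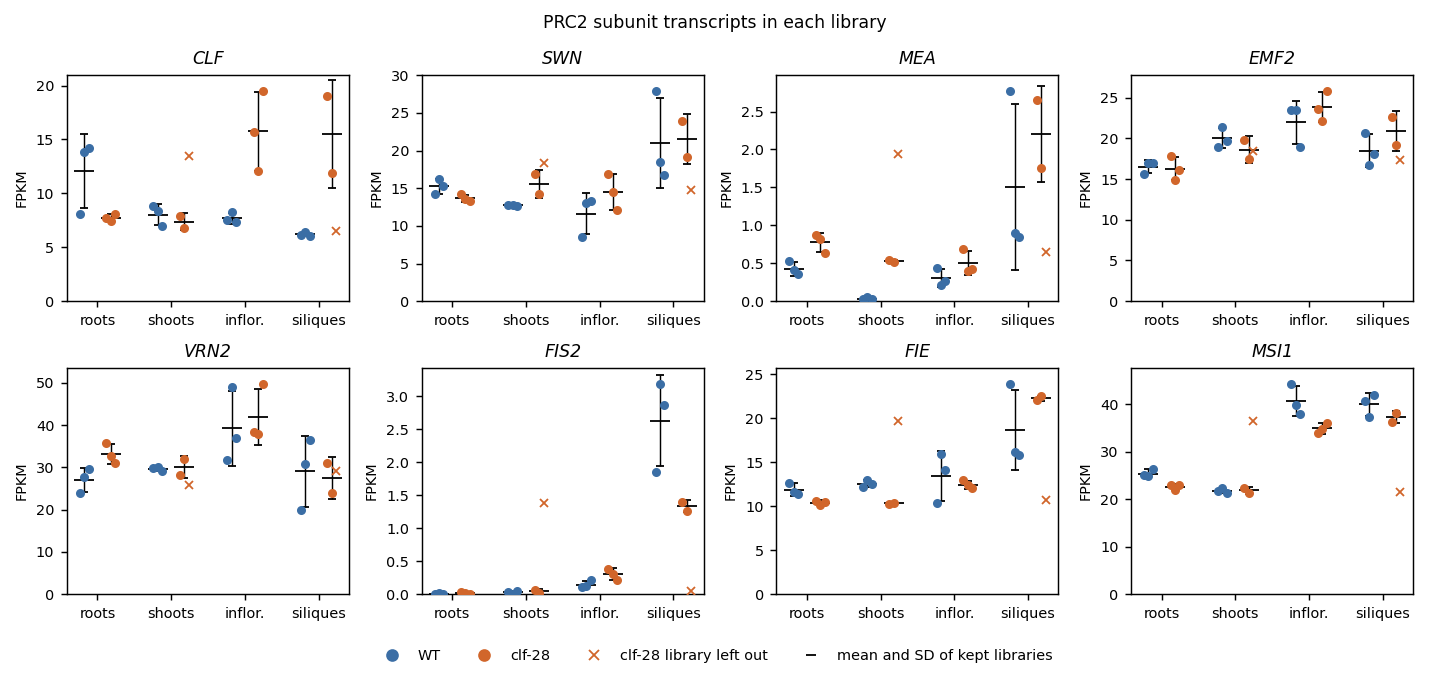
FPKM of the 8 PRC2 subunit genes in each library of roots, shoots, inflorescences and siliques. Circles are WT (blue) and clf-28 (orange) libraries, crosses are the 2 clf-28 libraries left out, and black marks give the mean and SD of those kept. CLF is higher in all clf-28 inflorescence and silique libraries than in WT, and FIS2 stands above 1 FPKM in siliques only among the libraries kept.

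The deposited locus of the CLF line is wider than the gene. The table gives chr2:9952867-9963623 in TAIR10, while RefSeq TAIR10.1 places CLF at chr2:9955092-9960386 on the plus strand, and most lines that name 1 gene share ends between table and annotation to within 500 bases (29392 of 31456). AT2G23370 and AT2G23390 overlap this locus on the opposite strand and AT2G23360 touches it on the same strand, and each has a line of its own. None of these 3 lines was called higher in clf-28 inflorescences or siliques. AT2G23390 fell in siliques (log2 difference -0.45, limma adjusted p = 0.0476), and the others had adjusted p from 0.427 to 0.867 in those tissues. A value per gene does not show which part of the CLF transcript the reads came from, so transcript made from the clf-28 allele is counted whatever it encodes. The authors' confidence bounds around the CLF value reached 0 at the lower end in 16 of 22 libraries.

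SWN, a methyltransferase known to act partly redundantly with CLF, was not called in any tissue. In WT it was 14.2, 16.2 and 15.3 FPKM in roots, 12.8, 12.7 and 12.7 FPKM in shoots, 8.48, 13.0 and 13.4 FPKM in inflorescences and 27.9, 18.5 and 16.7 FPKM in siliques. In clf-28 it was 14.2, 13.5 and 13.3 FPKM in roots, 16.8 and 14.3 FPKM in shoots, 16.9, 14.5 and 12.1 FPKM in inflorescences and 23.9 and 19.2 FPKM in siliques. The groups overlapped in roots, inflorescences and siliques, and the clf-28 shoot libraries lay above the 3 WT ones, where 29.4% of all lines were higher without overlap.

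The SWN log2 differences were -0.14 in roots (95% interval -0.53 to 0.24), 0.26 in shoots (-0.16 to 0.69), 0.31 in inflorescences (-0.077 to 0.69) and 0.06 in siliques (-0.37 to 0.49), with limma adjusted p of 0.784, 0.503, 0.431 and 0.884. The intervals, set on 14 residual degrees of freedom, leave room for a SWN rise of up to 0.69 in shoots and inflorescences and for none. With libraries weighted by their fit to their group, SWN was called higher in shoots (0.27, limma adjusted p = 0.0349) and lower in roots (-0.20, adjusted p = 0.0244). That weighting also called more of all lines in both tissues, as counted below. The interaction was not called for SWN (F = 1.29, limma adjusted p = 0.465). The SWN difference in siliques turned to -0.11 with all 24 libraries.

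**Figure D2:**
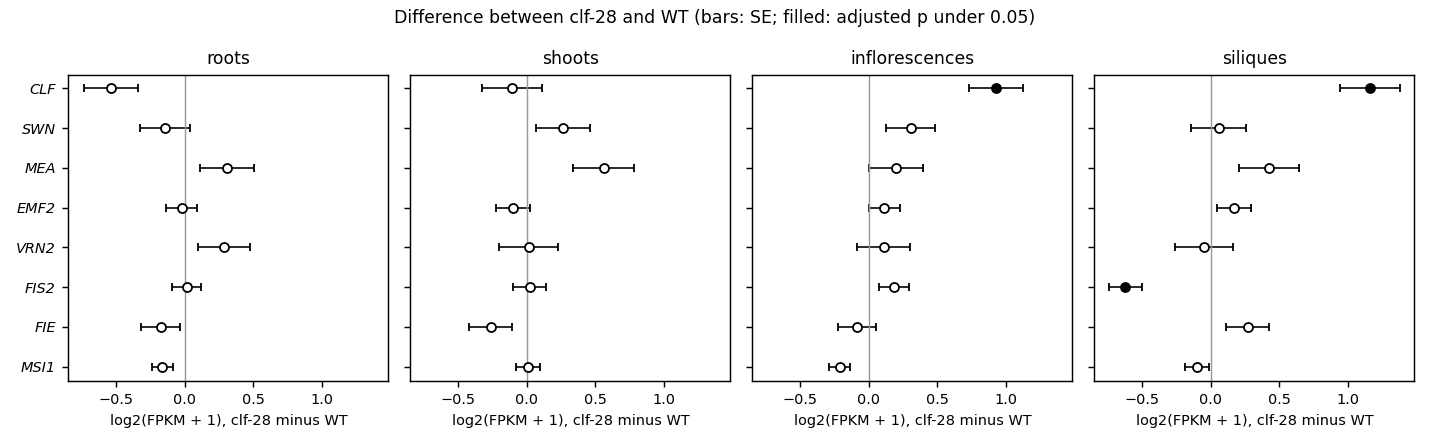
Difference between clf-28 and WT in log2(FPKM + 1) for each PRC2 subunit gene in each tissue, over 22 libraries. Points are the limma estimates, bars the SE, and filled points have an adjusted p under 0.05: CLF in inflorescences (0.92) and siliques (1.16) and FIS2 in siliques (-0.62).

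MEA, the methyltransferase of the female gametophyte and endosperm, was the least expressed of the catalytic genes. In WT it was 0.532, 0.405 and 0.353 FPKM in roots, 0.0249, 0.0491 and 0.0304 FPKM in shoots, 0.435, 0.210 and 0.272 FPKM in inflorescences and 2.77, 0.899 and 0.847 FPKM in siliques. In clf-28 it was 0.876, 0.816 and 0.629 FPKM in roots, 0.537 and 0.515 FPKM in shoots, 0.691, 0.396 and 0.423 FPKM in inflorescences and 2.65 and 1.75 FPKM in siliques. The clf-28 root and shoot libraries lay above all WT ones, as 18% and 29.4% of all lines did, and the inflorescence and silique libraries overlapped. Only 3 libraries, all of siliques, reached 1 FPKM, so MEA passed the filter on low values through them alone, and the authors' lower bound was 0 in 22 of 22 libraries.

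No MEA difference was called. In shoots the mean was 0.0348 ± 0.0127 FPKM (SD, n = 3) in WT and 0.526 ± 0.0157 FPKM (SD, n = 2) in clf-28, a log2 difference of 0.56 (SE 0.22, limma adjusted p = 0.125). The pseudocount of 1 FPKM decides this value: with 0.1 FPKM the log2 difference was 2.22 and was called (limma adjusted p = 0.00136), as it was after quantile normalization (0.77, adjusted p = 0.00982) and with sample weights (0.56, adjusted p = 1.99e-04), which also called MEA higher in roots (0.33, adjusted p = 9.05e-04) and siliques (0.74, adjusted p = 7.94e-05). Sample weights called more of all lines in every tissue too, as counted below. The other log2 differences were 0.31 in roots, 0.20 in inflorescences and 0.42 in siliques, with limma adjusted p of 0.430, 0.710 and 0.172. With all 24 libraries the shoot difference was 0.88 (limma adjusted p = 0.0841).

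A second line of the table also names MEA at the same locus, chr1:544759-551641 in TAIR10, and it is described here after its values were seen. RefSeq TAIR10.1 places MEA on the plus strand at chr1:544733-549202. Of the lines that name 1 gene among the 50 table lines on each side, all 79 around the line used above were for plus-strand genes, and all 81 around the second line were for minus-strand genes, so the second line lies among minus-strand transcripts. AT1G04127 and AT1G08805 are annotated on the minus strand in the end of that locus beyond MEA and have no line of their own in the table. Which transcript the second line holds was not tested.

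This opposite-strand line had higher values in clf-28 in 3 of 4 tissues. No WT library reached 1 FPKM, so the line passed the filter on low values through clf-28 libraries alone. In WT it was 0.406, 0.450 and 0.939 FPKM in roots, 0.294, 0 and 0 FPKM in shoots, 0.0631, 0.162 and 0.0562 FPKM in inflorescences and 0.485, 0.0568 and 0.428 FPKM in siliques. In clf-28 it was 1.25, 1.93 and 1.72 FPKM in roots, 0.911 and 1.28 FPKM in shoots, 0.210, 0.206 and 0.101 FPKM in inflorescences and 1.95 and 0.805 FPKM in siliques. All clf-28 libraries of roots, shoots and siliques lay above the WT libraries of their tissue, as 18%, 29.4% and 20.8% of all lines did, and those of inflorescences overlapped with WT.

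The log2 difference of the opposite-strand line was 0.73 in roots (SE 0.18, limma adjusted p = 0.0171), 0.94 in shoots (SE 0.21, adjusted p = 0.00637) and 0.82 in siliques (SE 0.21, adjusted p = 0.0061). In inflorescences it was 0.10 (SE 0.18, limma adjusted p = 0.890). Since the filter was passed through clf-28, these tests are a description and no independent support. With no filter on low values the limma adjusted p was 0.0184 in roots, 0.00705 in shoots and 0.00668 in siliques. The differences between tissues did not pass the interaction test (F = 3.91, limma adjusted p = 0.0847), though they did without clf-28 siliques replicate 2 (adjusted p = 0.0272) or the WT replicate 1 libraries (adjusted p = 0.04). The root call was lost without WT roots replicate 1 (0.64, limma adjusted p = 0.0564) or replicate 2 (0.67, 0.0763), without clf-28 roots replicate 2 (0.65, 0.0922) or replicate 3 (0.70, 0.0696), with all 24 libraries (adjusted p = 0.171), with a pseudocount of 0.1 FPKM (adjusted p = 0.151) and after quantile normalization (adjusted p = 0.113). The shoot call was lost without clf-28 shoots replicate 2 (0.81, limma adjusted p = 0.104), and the silique call without clf-28 siliques replicate 1 (0.46, adjusted p = 0.189) and with all 24 libraries (0.42, adjusted p = 0.303).

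Seed maturation transcripts summed to more in all clf-28 libraries of roots, shoots and inflorescences than in WT. The summed level of 7 seed maturation genes was 0.954 to 3.75 FPKM in WT roots and 99.3 to 201 FPKM in clf-28 roots, 2.03 to 5.86 FPKM and 119 to 272 FPKM in shoots, and 1.25 to 10.1 FPKM and 80.4 to 188 FPKM in inflorescences. None of the 7 was called in these 3 tissues, where 8.86%, 10.6% and 3.89% of all lines were called. The summed endosperm markers were 0.236 to 1.12 FPKM in WT roots and 0.487 to 0.596 FPKM in clf-28 roots, and at most 2.56 FPKM in WT shoots and 3.28 to 3.78 FPKM in clf-28 shoots. Their part in the values of the lines at the MEA locus was not tested.

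**Figure D3:**
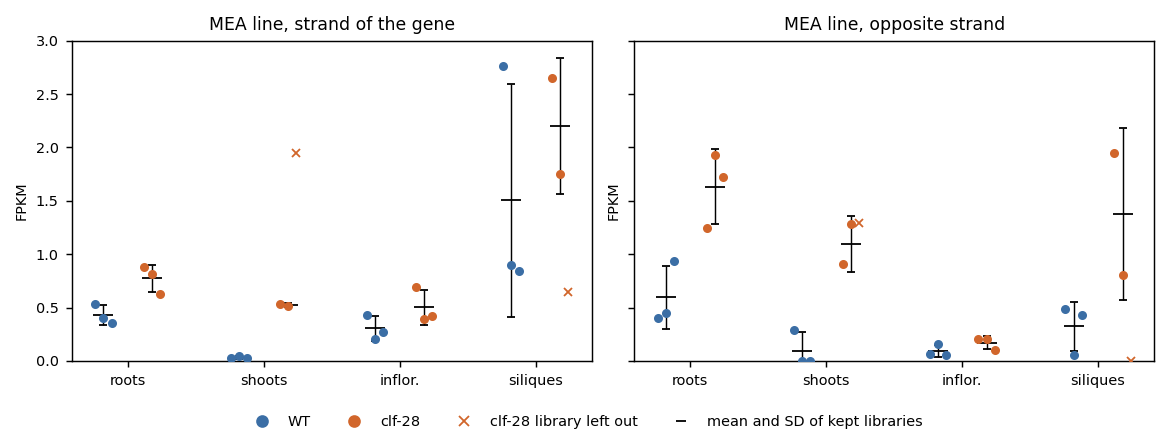
FPKM of the table line for MEA on the strand of the gene (left) and of the line at the same locus on the opposite strand (right), by tissue. Circles are the libraries kept, crosses the 2 left out, and black marks the mean and SD. On the opposite strand clf-28 reaches 1.93 FPKM in roots, where the highest WT value is 0.939 FPKM.

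The balance of the catalytic transcripts was read as a share of the summed FPKM of CLF, SWN and MEA, with no test. In WT SWN made up 55.5% ± 5.81 (SD, n = 3) in roots, 61.3% ± 2.90 (SD, n = 3) in shoots, 58.7% ± 6.30 (SD, n = 3) in inflorescences and 72.7% ± 2.66 (SD, n = 3) in siliques. In clf-28 it was 61.6% ± 1.01 (SD, n = 3), 66.3% ± 0.313 (SD, n = 2), 47.4% ± 8.48 (SD, n = 3) and 55.4% ± 4.16 (SD, n = 2) in the same order of tissues. The SWN share of every clf-28 silique library (52.5% and 58.3%) lay below that of every WT silique library (70.8% to 75.8%), while CLF went from 22.4% in WT siliques to 39.0% in clf-28 siliques. The SWN level itself was 21.0 FPKM in WT siliques and 21.5 FPKM in clf-28 siliques. In clf-28 the CLF part of the sum counts transcript of the mutant allele, whatever it encodes. MEA held 0.168% in WT shoots and 2.25% in clf-28 shoots, and 4.86% and 5.58% in the siliques of WT and clf-28.

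**Figure D4:**
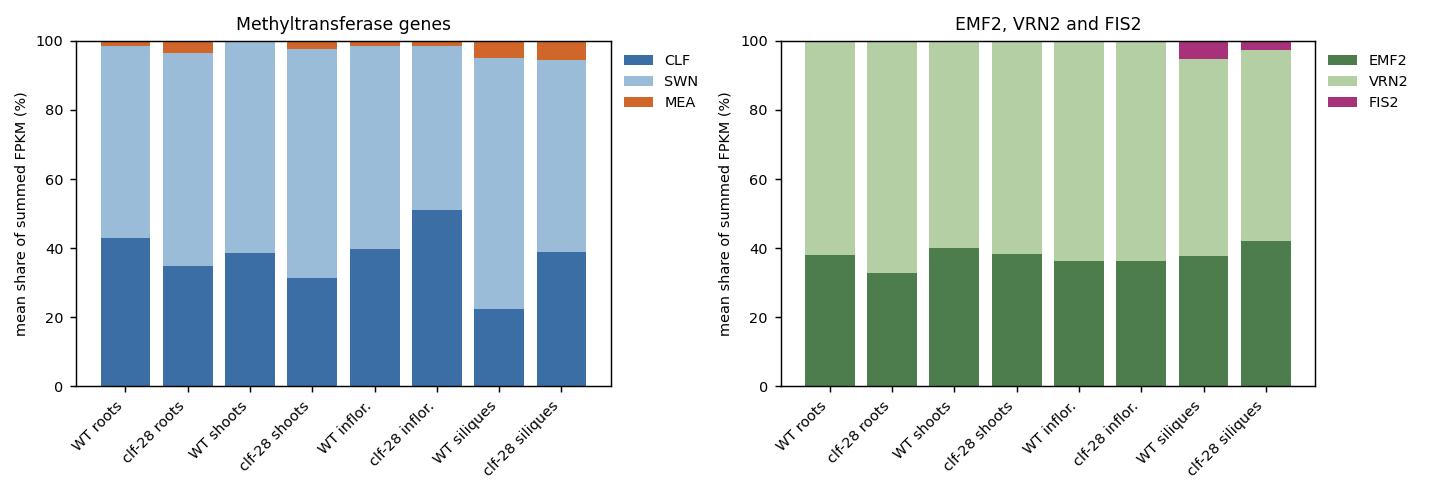
Mean share of the summed FPKM that each alternative subunit takes in each group, in percent. The left panel stacks the methyltransferase genes CLF, SWN and MEA, and the right panel EMF2, VRN2 and FIS2. SWN takes 72.7% of the catalytic sum in WT siliques and 55.4% in clf-28 siliques, and FIS2 is visible in siliques only.

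Of the zinc finger subunits, EMF2 and VRN2 were expressed in all tissues and were not called in any clf-28 comparison. EMF2, the subunit known for holding back flowering, lay between 14.9 and 25.8 FPKM over the 22 libraries. Its log2 differences were -0.023 in roots, -0.10 in shoots, 0.11 in inflorescences and 0.17 in siliques, with limma adjusted p from 0.353 to 1. VRN2, the subunit known from vernalization, lay between 19.9 and 49.7 FPKM. In roots VRN2 was 23.8, 27.8 and 29.5 FPKM in WT and 35.7, 32.6 and 31.1 FPKM in clf-28, without overlap, with a log2 difference of 0.29 (95% interval -0.12 to 0.69, limma adjusted p = 0.457), and 18% of all lines were higher without overlap there. Its other log2 differences were 0.014, 0.11 and -0.050 in shoots, inflorescences and siliques, with adjusted p from 0.880 to 1, and the shoot value was negative under both other scalings. VRN2 made up 55.1% to 67.1% of the summed FPKM of the EMF2, VRN2 and FIS2 genes as a group mean, so its level per length was above that of EMF2 in every group as a mean. In WT siliques replicate 1 alone EMF2 was higher, at 48.8% against 46.9%.

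FIS2, the zinc finger subunit of the seed complex, was nearly limited to siliques and fell there in clf-28. It was 1.85, 3.18 and 2.86 FPKM in WT siliques and 1.40 and 1.27 FPKM in clf-28 siliques, so that both clf-28 libraries lay below the 3 WT ones, as 29.2% of all lines did. The means were 2.63 ± 0.693 FPKM (SD, n = 3) and 1.33 ± 0.0929 FPKM (SD, n = 2), a log2 difference of -0.62 (SE 0.12, limma adjusted p = 9.34e-04). The call held in each leave-out of 1 library (-0.79 to -0.51) and was lost with the 5 silique libraries fitted alone (limma adjusted p = 0.14). With all 24 libraries the difference was -1.01 (limma adjusted p = 0.0209).

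Elsewhere FIS2 was at most 0.387 FPKM. In inflorescences it was 0.105, 0.118 and 0.213 FPKM in WT and 0.387, 0.313 and 0.209 FPKM in clf-28, with overlap and no call (log2 difference 0.19, limma adjusted p = 0.425). In roots and shoots it was at most 0.0665 FPKM in either genotype. The interaction was called for FIS2 (F = 9.31, limma adjusted p = 0.00624), but the pseudocount shrinks differences in the tissues where FIS2 is scarce. FIS2 passed the filter through siliques alone, so this interaction is a description. The authors' lower bound for FIS2 was 0 in 22 of 22 libraries. The FIS2 locus in the table overlaps AT2G35680 on the opposite strand, which has a line of its own and was not called in siliques (log2 difference 0.17, limma adjusted p = 0.450). It also spans AT2G08750 (chr2:14998444-14998752) on the same strand, beyond the annotated end of FIS2 (14996756) and with no line of its own. Whether reads of AT2G08750 enter the FIS2 value was not tested.

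FIE and MSI1, the subunits common to all PRC2 complexes, were not called in any clf-28 comparison. FIE was 12.7, 11.6 and 11.4 FPKM in WT roots and 10.6, 10.1 and 10.5 FPKM in clf-28 roots, and 12.2, 13.0 and 12.5 FPKM in WT shoots and 10.3 and 10.3 FPKM in clf-28 shoots. The clf-28 values lay below all WT values in both, as 18% and 21.8% of all lines did, and the log2 differences were -0.17 (95% interval -0.48 to 0.13) and -0.26 (-0.60 to 0.074), with limma adjusted p of 0.579 and 0.357. In siliques FIE was 23.8, 16.2 and 15.8 FPKM in WT and 22.0 and 22.5 FPKM in clf-28, overlapping through WT siliques replicate 1. Without that library the silique difference of 0.27 became 0.45 and was called (limma adjusted p = 0.0137). The FIE interaction was also called there (F = 6.23, limma adjusted p = 0.0187). Without the WT replicate 1 library of all 4 tissues FIE was called lower in shoots (-0.28, adjusted p = 0.0116) and inflorescences (-0.25, adjusted p = 0.0143) and higher in siliques (0.45, adjusted p = 1.51e-04). With sample weights FIE was called lower in roots, shoots and inflorescences and higher in siliques. Both the weights and the fit without the WT replicate 1 libraries called more of all lines in every tissue than the main fit, as counted below.

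MSI1, which is also part of the CAF-1 histone chaperone that acts at DNA replication, had the smallest SE of the members on the log2 scale. It was 25.1, 24.8 and 26.4 FPKM in WT roots and 23.0, 22.0 and 23.0 FPKM in clf-28 roots, a log2 difference of -0.16 (SE 0.077, limma adjusted p = 0.245). In inflorescences it was 44.2, 39.9 and 38.0 FPKM in WT and 33.9, 34.9 and 36.1 FPKM in clf-28, a log2 difference of -0.21 (SE 0.077, limma adjusted p = 0.153). The clf-28 libraries lay below all WT libraries in both tissues, as 10.1% of all lines did in inflorescences. In shoots and siliques the differences were 0.0075 and -0.098, with adjusted p of 1 and 0.449, and the shoot value was negative under both other scalings. With sample weights, which called more of all lines in every tissue, MSI1 was called lower in roots and in no other tissue.

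The FIE locus in the table likewise holds AT3G04015 on the same strand, with no line of its own.

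Dividing-cell markers were also measured beside these values. Of 12 such genes, among them cyclins and MCM replication factors, 3 fell in roots and 8 fell in shoots of clf-28, 0 were called in inflorescences (limma, 3 of 12 at an unadjusted p under 0.05) and 3 fell in siliques, where 8.86%, 10.6%, 3.89% and 28.7% of all lines were called. Leaving out 1 library moved these counts to between 0 and 8 in roots, 3 and 10 in shoots, 0 and 3 in inflorescences and 0 and 3 in siliques. Their summed level was 158 to 213 FPKM in WT roots and 132 to 138 FPKM in clf-28 roots, 177 to 224 FPKM and 112 to 114 FPKM in shoots, 256 to 353 FPKM and 256 to 260 FPKM in inflorescences, and 202 to 258 FPKM and 189 to 224 FPKM in siliques. The sums overlapped in inflorescences and siliques and did not in roots and shoots. The root groups also differed in summed root markers (615 to 859 FPKM in WT and 493 to 509 FPKM in clf-28, 1 of 8 called lower) and in summed photosynthesis markers (234 to 401 FPKM and 128 to 146 FPKM, 3 of 4 called lower). The part of these markers in the CLF, FIE and MSI1 values was not tested.

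The silique groups also differed in seed stage. The summed level of 7 seed maturation genes, such as CRA1, a cruciferin storage protein, was 18002, 8.03 and 8.75 FPKM in WT siliques and 77494 and 82899 FPKM in clf-28 siliques, so WT siliques replicate 1 stood nearer to clf-28 than to its own group on a log scale. MEA (2.77 FPKM), FIE (23.8 FPKM), SWN (27.9 FPKM) and EMF2 (20.7 FPKM) were highest and FIS2 (1.85 FPKM) and VRN2 (19.9 FPKM against 30.9 and 36.4 FPKM) lowest of the WT siliques in that library, while CLF there (6.15 FPKM) lay among its group. For the marker counts that follow, 28.7% of all lines were called in siliques, 12.3% higher and 16.4% lower. Of 7 endosperm markers tested, 5 fell and 2 rose in clf-28 siliques: FWA, an imprinted homeobox gene, had a log2 difference of -1.53 and SUC5, a sucrose carrier of the endosperm, 0.64 (limma adjusted p = 1.73e-06 and 0.00529). The summed level of all 8 listed was 75.6 to 86.6 FPKM in WT and 73.4 and 78.0 FPKM in clf-28. Markers of other tissues and cells differed between the silique groups too. Photosynthesis markers summed to 14942 to 29582 FPKM in WT and 8271 to 10039 FPKM in clf-28 (3 of 4 fell), and pollen and tapetum markers to 76.2 to 93.9 FPKM and 27.4 to 30.3 FPKM (3 of 7 fell). Of 5 seed coat markers 4 fell and 1 rose, with sums of 681 to 956 FPKM and 734 to 814 FPKM. The part of seed stage and of these tissues in the FIS2, FIE, MEA and CLF values was not tested. Without the WT replicate 1 library of all tissues, which leaves 2 WT silique libraries at 8.03 and 8.75 FPKM of maturation genes, the log2 difference was 1.15 for CLF (limma adjusted p = 2.74e-04) and -0.79 for FIS2 (adjusted p = 1.37e-06).

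**Figure D5:**
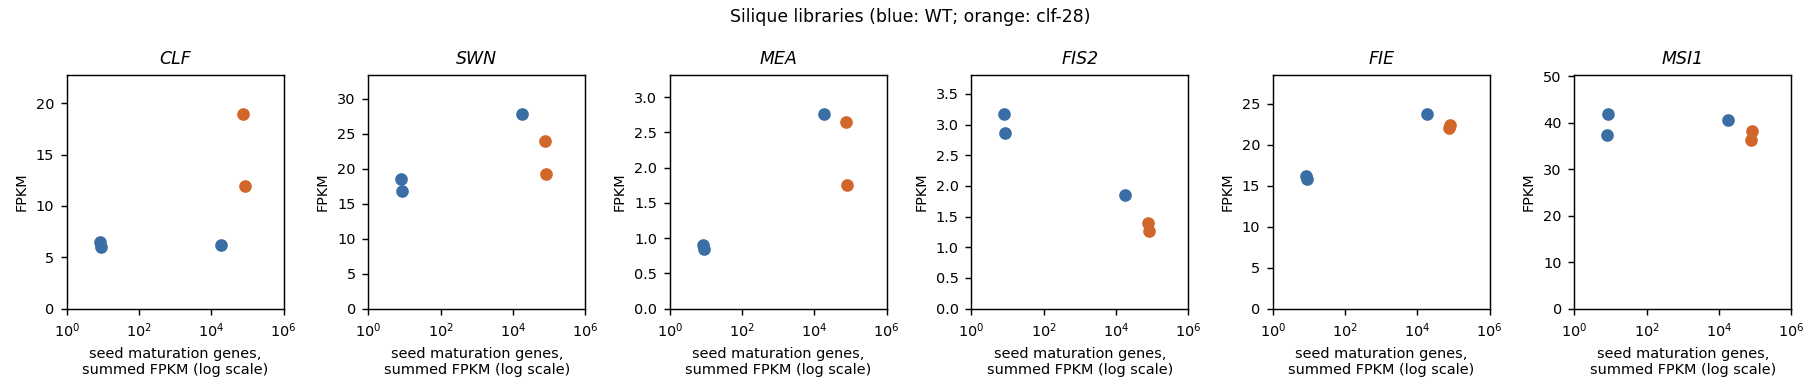
FPKM of 6 PRC2 subunit genes (y axis, linear) against the summed FPKM of 7 seed maturation genes (x axis, log scale) in the 3 WT (blue) and 2 clf-28 (orange) silique libraries. WT siliques replicate 1, at 18002 FPKM of maturation genes, lies near clf-28 for MEA, FIS2 and FIE and with the other WT libraries for CLF.

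Among WT tissues FIS2 was 2.63 FPKM in siliques, then 0.145 in inflorescences, 0.0283 in shoots and 0.00724 in roots. MEA was 1.50 FPKM in siliques, 0.430 in roots, 0.306 in inflorescences and 0.0348 in shoots. Both passed the filter on low values only because they are high in siliques, so these levels are a description with no test. MSI1 was 40.7 FPKM in inflorescences and 40.0 in siliques, which did not differ beyond their spread (adjusted p = 0.854), then 25.4 in roots (0.63 below siliques on the log2 scale, limma adjusted p = 1.27e-06) and 21.8 in shoots (0.21 below roots, adjusted p = 0.0269). The last step was lost without WT roots replicate 3 (adjusted p = 0.0923), WT shoots replicate 1 (0.0592) or WT shoots replicate 3 (0.0775), with median-of-ratios scaling (0.238), with all 24 libraries (0.384) and with these groups alone (0.0561).

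FIE was 18.6 FPKM in siliques, above 13.4 in inflorescences (log2 difference 0.43, limma adjusted p = 0.0201), 12.6 in shoots and 11.9 in roots. That call was lost without WT inflorescences replicate 1 (adjusted p = 0.106) or WT siliques replicate 1 (adjusted p = 0.111), with all 24 libraries (adjusted p = 0.227) and with these groups alone (adjusted p = 0.243). CLF was 12.0 FPKM in roots, above 8.03 in shoots (0.50, limma adjusted p = 0.0398), 7.69 in inflorescences and 6.21 in siliques, and that step was lost without WT roots replicate 2 or 3 or WT shoots replicate 2 or 3 (adjusted p from 0.0652 to 0.169) and under both other scalings (0.0745 and 0.1), with all 24 libraries (0.172) and with these groups alone (0.0982). SWN (21.0 FPKM in siliques to 11.6 in inflorescences), EMF2 (22.0 in inflorescences to 16.5 in roots) and VRN2 (39.2 in inflorescences to 27.1 in roots) had no neighbouring tissues that passed the test, while tissues further apart did. SWN was higher in siliques than in inflorescences (log2 difference 0.79, limma adjusted p = 0.00163) and shoots (0.65, adjusted p = 0.00555), and EMF2 was higher in inflorescences than in roots (0.39, adjusted p = 0.00591). VRN2 was higher in inflorescences than in roots too (0.50, limma adjusted p = 0.0286), a call lost without WT roots replicate 1 (adjusted p = 0.102) or WT inflorescences replicate 2 (0.159) and under both other scalings (0.0717 and 0.0946). With the compared groups fitted alone the SWN step to inflorescences (limma adjusted p = 0.0741), the EMF2 step (0.0562) and the VRN2 step (0.069) were not called.

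Counted over pairs of WT tissues, 2 of 8 members were called between shoots and roots (55% of all lines), 4 between inflorescences and roots (63.5%), 5 between siliques and roots (62.3%), 1 between inflorescences and shoots (53.9%), 5 between siliques and shoots (52.5%) and 4 between siliques and inflorescences (40.4%). MEA and FIS2 are among the members called in every pair with siliques, the tissue through which they passed the filter, so the counts of those pairs are a description. In clf-28 the order of CLF was another. Its level was 15.7 FPKM in inflorescences and 15.5 in siliques, then 7.76 in roots and 7.37 in shoots, and the step from siliques to roots was called (log2 difference 0.88, limma adjusted p = 0.00218, where 59.1% of all lines were called; 0.56 and adjusted p = 0.0763 without clf-28 siliques replicate 1).

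Other proteins of the Polycomb system were examined as lists. Of 15 partners tested, which include LHP1, a reader of the histone mark, and the VIN3 family that works with VRN2, 0 were called in any of the 4 tissues (limma), and 4, 0, 3 and 0 had an unadjusted p under 0.05 in roots, shoots, inflorescences and siliques. Of all lines 8.86%, 10.6%, 3.89% and 28.7% were called in these tissues. With sample weights 8, 4, 1 and 3 partners were called, in a setting that called more of all lines in every tissue, as counted below. The 15 had median log2 differences of 0.10, 0.12, 0.063 and 0.033 in roots, shoots, inflorescences and siliques, where the median over all lines was -0.0071, 0.013, 0 and -0.046. Among 7 genes of the MSI family and CAF-1, FVE, a further MSI protein, fell in roots (log2 difference -0.32, limma adjusted p = 0.0193) and MSI5 fell in siliques (-0.60, adjusted p = 0.0449), with list medians of -0.26, -0.19, -0.080 and -0.27. Of 4 genes that set the DNA methylation on which imprinting rests, DDM1, a chromatin remodeller, fell in shoots (-0.58, limma adjusted p = 0.032) and DME, the DNA glycosylase that activates the maternal MEA and FIS2 copies, rose in siliques (0.48, adjusted p = 0.0466), from 7.42 to 10.8 FPKM. These 4 calls lay near the threshold. Over 32 alternatives FVE was not called in 6, MSI5 in 15, DDM1 in 6 and DME in 20. The 32 include leave-outs of libraries from other tissues, which cannot move these log2 differences. In roots, shoots and siliques 8.86%, 10.6% and 28.7% of all lines were called.

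Known Polycomb targets were listed with results of these data in view, so their direction is no independent evidence. Of 25 tested, 5 rose and 0 fell in roots, 9 rose and 0 fell in shoots, 1 rose and 2 fell in inflorescences, and 5 rose and 7 fell in siliques, with median log2 differences of 0.21, 0.46, 0.034 and -0.081. Of all lines 8.86%, 10.6%, 3.89% and 28.7% were called in these tissues, and in siliques 12.3% higher and 16.4% lower. In shoots, where SWN, VRN2 and EMF2 were not called, AG, a floral organ identity gene, rose from 0.316 to 44.0 FPKM (5.10, limma adjusted p = 2.81e-10), FT, the flowering signal, from 1.69 to 29.8 FPKM (3.52, adjusted p = 7.40e-08), SHP2 from 0.322 to 6.02 FPKM (2.40) and SEP3 from 7.45 to 60.0 FPKM (2.93). In roots WOX5, a stem cell gene of the root tip, rose from 2.69 to 9.85 FPKM (1.56), and AG (1.60), AGL19 (1.60) and SHP2 (0.64) rose too. In inflorescences AP1 (-1.10) and WUS (-0.87) fell and FT (1.11) rose. In siliques FUS3 (3.49), ABI3 (3.58) and FLC (3.42) rose, the first pair being regulators of seed maturation, and STM, a shoot meristem gene, fell from 14.2 to 6.55 FPKM. The silique groups differed in seed stage, as given above, and its part in these silique values was not tested. With all 24 libraries SHP2 (limma adjusted p = 0.946) and AGL19 (0.184) in roots, FT in inflorescences (0.793) and FUS3 (0.467) and ABI3 (0.393) in siliques were not called. PHE1 stands both in this list and among the endosperm markers.

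The genes whose log2 level followed each member most closely over the 22 libraries were taken by Pearson's r, as a description in which libraries share tissue and scaling. FIS2 had BG1 (r = 0.99), AGL28 (0.99) and CYP79A2 (0.99), and MSI1 had PPa2 (0.97), MIF2 (0.97) and NIMIN1 (0.96). MEA had MPK19 (0.93), ILR1 (0.92) and TBL38 (0.92), FIE had UGT76E2 (0.93), NRPD1A (0.92) and LCR27 (0.92), and EMF2 had AGO10 (0.91), HB22 (0.90) and ACI1 (0.87). SWN had MUG6 (0.87), G3Pp5 (0.82) and UBC30 (0.82), and VRN2 had NUDT12 (0.85), VTI13 (0.83) and XIC (0.82). CLF had the weakest likeness, with CIB5 (0.69), BCAT-2 (0.67) and IMK2 (0.66).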

How the data were processed

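The authors deposited 1 table of FPKM with a column per library, made per the submitters' processing notes with TopHat, Cufflinks and Cuffdiff on TAIR10 (versions not given in the sources used here); per the file headers each FPKM value carries lower and upper confidence bounds and a status. Values marked FAIL or HIDATA (128 in 61 of 34178 lines) were left out. Read depth is unknown, since FPKM sums (849519 to 1334840) are not depths. Groups came from the labels. Members and gene lists (115 of 120 entries matched) were chosen with earlier results of these data known. Where several lines named a gene, the one with the highest mean was used. Lines at 1 FPKM or more in at least 3 of 22 libraries (23790) were fitted as log2(FPKM + 1) in limma 3.58.1 (R 4.3.3), with 8 group means, an intensity trend and a robust prior, two-sided, and Benjamini-Hochberg adjustment over all lines. The pseudocount pulls differences of weakly expressed genes towards 0. The p-values measure the spread between labelled biological replicates. The fit was tested on simulated data. Genes outside the members were named by a rule: up to 4 called genes per list and tissue with the smallest p, and the 3 genes with a symbol closest to each member by Pearson's r. FWA, SUC5, CRA1 and genes overlapping a member's locus were named after their values were seen. Alternatives were other pseudocounts (0.1 and 5 FPKM), scalings, filters, weights and sets of libraries. Promoters were read from the RefSeq TAIR10.1 genome.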

Additional observations from a re-analysis of the deposited data

Results flagged for a closer look

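The difference between clf-28 and WT varied with the tissue for CLF (interaction F = 15.7, limma adjusted p = 7.87e-04), with log2 differences of -0.54 in roots, -0.11 in shoots, 0.92 in inflorescences and 1.16 in siliques. FIS2 passed the same test (F = 9.31, limma adjusted p = 0.00624), with 0.013, 0.023, 0.19 and -0.62. It passed the filter through siliques alone and was at most 0.387 FPKM elsewhere, where the pseudocount shrinks differences. The FIS2 interaction is therefore a description. Neither interaction passed with all 24 libraries. A table line outside the members' own, the one opposite in strand to MEA, was higher in clf-28 in roots (limma adjusted p = 0.0171, 3 of 3 clf-28 libraries above all WT), shoots (adjusted p = 0.00637, 2 of 2) and siliques (adjusted p = 0.0061, 2 of 2), where 18%, 29.4% and 20.8% of all lines were higher without overlap. That line passed the filter on low values through clf-28 libraries alone, so these calls are a description and no independent support.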

How the results depend on the processing

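Over 136 member results and 4249 values under the alternatives, 3993 kept their direction and their side of the threshold, 87 lost a call, 96 gained one and 73 turned sign, none of these with a call of its own. Of the 32 alternatives, 22 left out 1 library. For a comparison of 2 groups, leaving out a library of another group cannot move the log2 difference. Many of the 3993 values therefore could not turn sign, and their number is no measure of robustness. Of the 73, 1 had been called and is a further lost call: FIS2 in clf-28 inflorescences against shoots (0.32, limma adjusted p = 0.036), with all 24 libraries. CLF in siliques kept its call under all alternatives except 2 (all 24 libraries, and the silique libraries alone), and FIS2 in siliques under all except the silique libraries alone. Depth is unknown, so no detection limit can be given for MEA and FIS2. MEA has no value without the WT replicate 1 libraries and in other leave-outs, since it then fails the filter, and likewise MEA and FIS2 have none where the compared groups are fitted alone outside siliques. Where a leave-out left 1 library in a group, it was assumed to vary like the other groups. The interaction was not run on compared groups alone. The share of called lines that were higher went from 71.3% to 54.6% in roots with quantile normalization and from 61.3% to 50.7% in shoots with median-of-ratios scaling. The cause of each change below was not tested.

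With all 24 libraries, members called numbered 0 for inflorescences, 1 for siliques, 0 for WT shoots against roots, 2 for clf-28 siliques against roots, 2 for clf-28 inflorescences against shoots, 0 for clf-28 siliques against shoots, 2 for clf-28 siliques against inflorescences and 0 for the interaction. There, lines called numbered 993 for roots, 1336 for shoots, 260 for inflorescences, 3886 for siliques and 2499 for the interaction. There, shares were 62.3% for SWN in clf-28 shoots and 57.7% for VRN2 in clf-28 siliques. There, log2 differences turned sign to 0.16 for CLF in shoots, -0.056 for VRN2 in shoots, 0.028 for FIE in shoots, -0.11 for SWN in siliques, -0.062 for FIE in siliques, 0.20 for CLF in clf-28 shoots against roots, 0.10 for MEA in clf-28 shoots against roots, 0.28 for FIE in clf-28 shoots against roots, 0.19 for MSI1 in clf-28 shoots against roots, -0.081 for FIS2 in clf-28 inflorescences against shoots, -0.042 for FIE in clf-28 inflorescences against shoots and -0.17 for MSI1 in clf-28 siliques against inflorescences. Without the WT replicate 1 libraries, members called numbered 1 for roots, 1 for shoots, 2 for inflorescences, 3 for WT inflorescences against shoots and 2 for WT siliques against inflorescences. There, lines called numbered 6054 for roots, 6448 for shoots, 6338 for inflorescences, 11679 for siliques and 13359 for the interaction. There, log2 differences turned sign to -0.028 for VRN2 in inflorescences, 0.027 for CLF in WT inflorescences against shoots, 0.051 for SWN in WT inflorescences against shoots, 0.17 for VRN2 in WT siliques against shoots and 0.025 for MSI1 in WT siliques against inflorescences. With the compared groups fitted alone, members called numbered 0 for inflorescences, 0 for siliques, 1 for WT shoots against roots, 1 for WT inflorescences against roots, 3 for WT siliques against shoots, 1 for WT siliques against inflorescences and 3 for clf-28 siliques against inflorescences. There, lines called numbered 3909 for shoots, 61 for inflorescences and 913 for siliques. With sample weights, members called numbered 5 for roots, 3 for shoots, 2 for inflorescences, 4 for siliques, 6 for WT shoots against roots, 7 for WT inflorescences against roots, 3 for WT inflorescences against shoots, 1 for clf-28 shoots against roots, 7 for clf-28 inflorescences against roots and 5 for the interaction. There, lines called numbered 10344 for roots, 8781 for shoots, 5958 for inflorescences, 11848 for siliques and 15920 for the interaction, of 23790 tested. There, log2 differences turned sign to -0.15 for VRN2 in inflorescences, 0.038 for CLF in WT inflorescences against shoots, 0.013 for SWN in WT inflorescences against shoots, 0.14 for VRN2 in WT siliques against shoots and 0.18 for CLF in clf-28 siliques against inflorescences. With a pseudocount of 0.1 FPKM, members called numbered 1 for shoots and 3 for WT inflorescences against shoots. There, lines called numbered 437 for inflorescences. With median-of-ratios scaling, members called numbered 2 for clf-28 inflorescences against shoots. There, log2 differences turned sign to -0.058 for VRN2 in shoots, -0.064 for MSI1 in shoots, -0.042 for EMF2 in WT inflorescences against shoots, -0.089 for FIE in WT inflorescences against shoots, 0.029 for MSI1 in WT siliques against inflorescences, 0.019 for FIE in clf-28 shoots against roots, -0.012 for SWN in clf-28 inflorescences against roots and 0.082 for CLF in clf-28 siliques against inflorescences. With quantile normalization, members called numbered 1 for shoots. There, log2 differences turned sign to -0.083 for VRN2 in shoots, -0.086 for MSI1 in shoots, -0.11 for VRN2 in WT siliques against roots, -0.072 for FIS2 in WT inflorescences against shoots, -0.091 for FIE in WT inflorescences against shoots, 0.045 for MEA in clf-28 shoots against roots, 0.014 for FIE in clf-28 shoots against roots, -0.054 for SWN in clf-28 inflorescences against roots and 0.0039 for CLF in clf-28 siliques against inflorescences. With all lines of a gene summed, shares were 57.4% for SWN in clf-28 roots and 63.3% for SWN in clf-28 shoots. Leaving out each library in turn, members called ran from 0 to 1 for roots, 0 to 1 for inflorescences, 0 to 3 for WT shoots against roots, 1 to 2 for WT inflorescences against shoots, 3 to 7 for clf-28 siliques against roots, 2 to 5 for clf-28 inflorescences against shoots, 3 to 5 for clf-28 siliques against shoots and 3 to 5 for clf-28 siliques against inflorescences. Lines called ran from 1323 to 3132 for roots, 925 to 3564 for shoots, 448 to 2633 for inflorescences and 3848 to 8404 for siliques. Log2 differences that turned sign ran from -0.085 to 0.035 for EMF2 in roots, -0.072 to 0.10 for VRN2 in shoots, -0.0061 to 0.053 for FIS2 in shoots, -0.024 to 0.040 for MSI1 in shoots, -0.028 to 0.28 for VRN2 in inflorescences, -0.25 to 0.038 for FIE in inflorescences, -0.094 to 0.27 for SWN in siliques, -0.29 to 0.13 for VRN2 in siliques, -0.12 to 0.30 for VRN2 in WT siliques against roots, -0.14 to 0.012 for CLF in WT inflorescences against shoots, -0.25 to 0.049 for SWN in WT inflorescences against shoots, -0.052 to 0.23 for FIE in WT inflorescences against shoots, -0.25 to 0.17 for VRN2 in WT siliques against shoots, -0.071 to 0.037 for MSI1 in WT siliques against inflorescences, -0.16 to 0.029 for CLF in clf-28 shoots against roots, -0.046 to 0.18 for SWN in clf-28 inflorescences against roots, -0.22 to 0.011 for SWN in clf-28 inflorescences against shoots, -0.11 to 0.023 for MEA in clf-28 inflorescences against shoots, -0.32 to 0.042 for VRN2 in clf-28 siliques against shoots and -0.35 to 0.28 for CLF in clf-28 siliques against inflorescences.

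The main fit did not pair samples by replicate number, and whether the numbers pair them cannot be decided here. Correlations of same-numbered deviations from the group means ran from 0.00344 to 0.0717 in roots and from -0.22 to -0.034 in inflorescences, and were 0.114 and 0.0786 in shoots and 0.0874 and 0.0679 in siliques. In shoots and siliques the deviations of the 2 clf-28 libraries mirror each other, so the values of each tissue are not independent. With the replicate block CLF was 0.92 in inflorescences (limma adjusted p = 0.0178) and 1.19 in siliques (0.00143), FIS2 in siliques was -0.61 (0.00231), no call of a member between genotypes changed, and MEA in clf-28 inflorescences against shoots turned to 0.029.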
